A study of Homo sapiens with 16 samples.

Results

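Clustered histone genes are the genes whose symbols start with HIST1, HIST2, HIST3 or HIST4, after the chromosomal clusters that hold them. Members were the clustered histone targets with 20 or more reads summed over the 16 libraries, which gave 52 genes out of 20802 measured genes and out of 66 clustered histone targets. Symbol and read number chose them, and this rule was set with earlier results of these data known. The members just inside the limit were HIST1H2BA with 27 reads and HIST1H1A with 40 reads. HIST2H2BF with 17 reads and HIST1H3I with 15 reads lay just outside it. The symbols divide the members into 5 genes of H1, 13 of H2A, 16 of H2B, 9 of H3 and 9 of H4. By cluster, 44 members belong to HIST1, 5 to HIST2 and 3 to HIST3, and the single gene of the last cluster, HIST4H4, had 4 reads and is no member.

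The study counted RNA in HEK293, a human embryonic kidney line grown in Free-style medium, and concerned the effect of the geometry of paired Janus kinases on expression after interferon of either type. Cells with optimized receptors and cells with wild-type receptors were each given IFNw, H11 or IFNL3 at 100 nM for 15 min or were left untreated, and the labels also state a time of 24 hr for all 8 groups. IFNw is interferon omega, a type I interferon, IFNL3 is interferon lambda 3, a type III interferon, and H11 is labelled as a high-affinity variant of IFNL3. How the exposure and the 24 hr relate is not stated, no group was mock-treated, and each group had 2 libraries that the labels call biological replicates without saying that they came from separate cultures, so p-values measure the spread between these libraries. Library totals lay between 5331203 and 9822088 reads, with 14033 to 15250 genes read at least once, and the members took between 1.41% and 2.97% of a library's reads. Among HEK293 markers KRT8, KRT18, VIM and LIN28B were present, with a list sum of 374 to 612 CPM (counts scaled to a common library size), while NEFM was at or near 0. Markers of differentiated kidney summed to at most 0.402 CPM and those of blood to at most 0.139, with 1 of the 4 genes of each list at 0 reads. The fibroblast list of 4 genes came to 7.93 to 20.6 CPM, COL1A2 and COL3A1 being at 0 reads. As a check of treatment, the interferon-induced genes ISG15, IFI6 and IFIT1 were compared with untreated cells of the same receptor type. Their median log2 fold change with IFNw, H11 and IFNL3 was 7.89, 5.02 and 4.95 in wild-type cells. In optimized cells it was 8.24, 8.26 and 7.27. Their sum lay between 68.1 and 18156 CPM over all libraries, untreated ones included.

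Core histones H2A, H2B, H3 and H4 form the protein spool of the nucleosome, and the linker histone H1 binds the DNA where it enters and leaves that spool. Most clustered genes are replication-dependent: they are transcribed in S phase to package new DNA, their transcripts have no introns, and the mature mRNA ends in a conserved stem-loop in place of a poly(A) tail. The stem-loop is bound by SLBP, and the U7 small nuclear ribonucleoprotein, which contains LSM10 and LSM11, guides the cut that makes the end. Many genes of a class encode the same or nearly the same protein, so that the cell's supply of a histone is the sum over many gene copies.

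The stem-loop is shown because it sets these transcripts apart from most other mRNA and because members with strong and opposite responses carry it. In GENCODE v29 models (GRCh38), 28 of the 52 members have an annotated 3′ end beyond the reading frame long enough to search, and 23 of these hold a hairpin of 6 base pairs and a loop of 4 bases, 21 of them with Watson-Crick pairs throughout. There were 5 distinct forms, in 11, 5, 4, 2 and 1 members. The hairpin began between 23 and 456 bases after the stop codon, with a median of 37. In the following DNA-strand sequences, written 5′ to 3′, the capitals mark the hairpin and the lower-case letters the 5 bases on each side.
HIST3H2A: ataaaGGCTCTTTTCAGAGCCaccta
HIST1H2BG: tcaaaGGCTCTTTTCAGAGCCactca
HIST1H2BD: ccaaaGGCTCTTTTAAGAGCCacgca
HIST1H3G: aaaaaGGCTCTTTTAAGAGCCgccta
HIST1H2AG: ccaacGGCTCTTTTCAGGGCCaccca
HIST1H4E: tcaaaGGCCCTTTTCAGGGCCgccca
HIST1H4H: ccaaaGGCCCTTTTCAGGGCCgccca
HIST1H4J: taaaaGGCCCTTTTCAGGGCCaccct
HIST1H4I: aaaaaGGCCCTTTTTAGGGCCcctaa
HIST3H2A and HIST1H2BG carry the most common form, and HIST1H2BD and HIST1H3G share the next. The hairpin of HIST1H2AG has 1 pair that is not Watson-Crick, and HIST1H4E, HIST1H4H and HIST1H4J have the form found in 4 H4 genes. The genes shown include members that rose and members that fell with the same ligand.

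Summed over the 52 members, histone reads as plain CPM (counts over the library's total) were lower in every treated group than in untreated cells of the same receptor type. In cells with optimized receptors the 2 libraries gave 17204 and 19523 with IFNw, 17369 and 18885 with H11, 14288 and 15279 with IFNL3, and 24435 and 29710 untreated. In cells with wild-type receptors they gave 18595 and 19553 with IFNw, 14077 and 15991 with H11, 15022 and 15359 with IFNL3, and 24788 and 25736 untreated. No treated library reached an untreated one. The ratios of means to untreated cells were 0.678, 0.670 and 0.546 for IFNw, H11 and IFNL3 in optimized cells, and 0.755, 0.595 and 0.601 in wild-type cells. With 2 libraries against 2, an exact two-sided permutation test cannot go below 0.333, so these sums are given with no test. RNA was taken from whole cultures, so fewer cells that make histone mRNA and less histone mRNA per cell cannot be told apart.

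**Figure D1:**
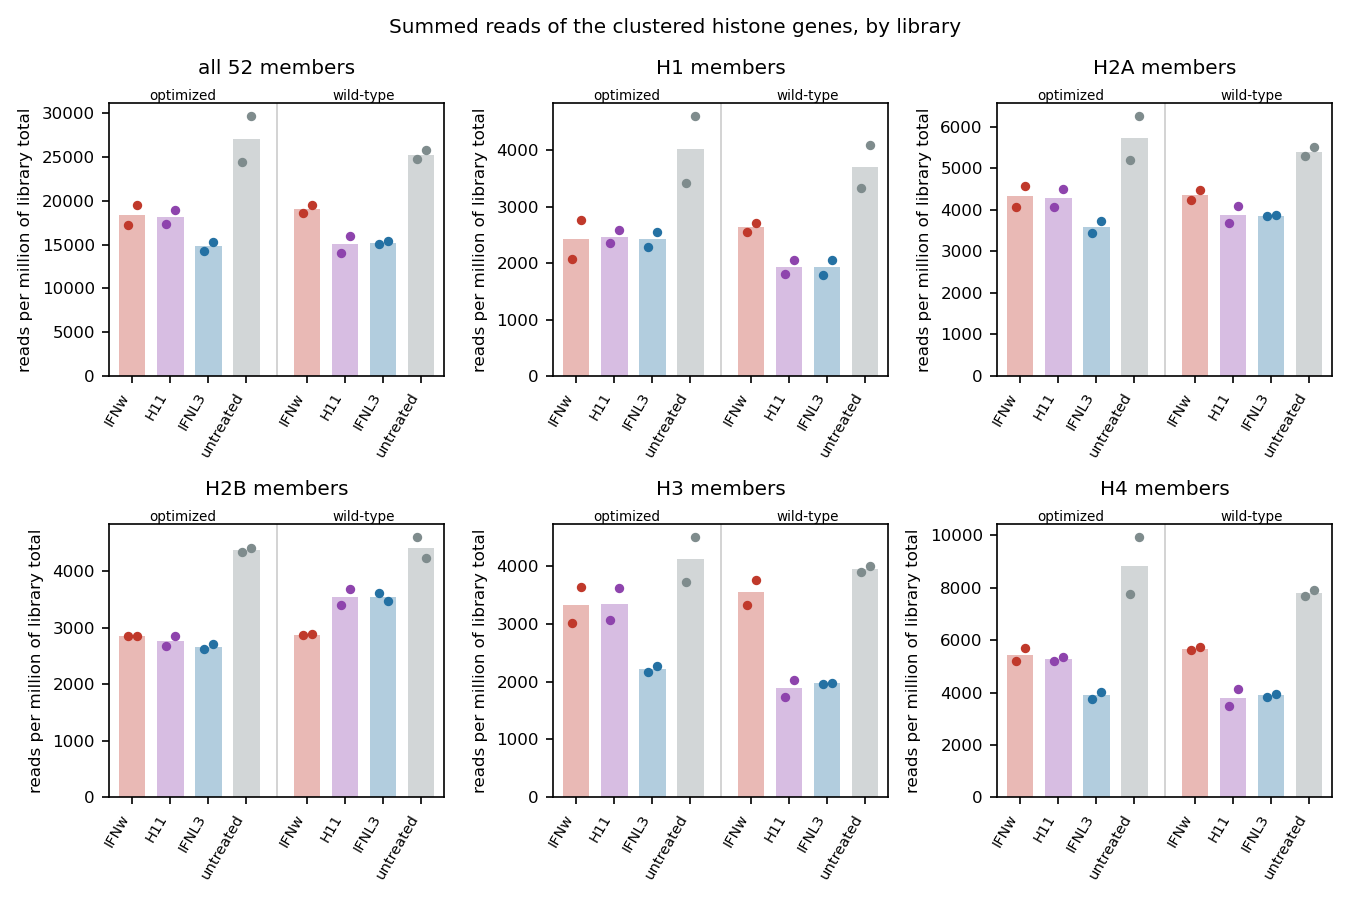
Plain CPM, summed over the members of each histone class, for the 8 groups of 2 libraries each; points are libraries and bars their mean. H4 has the most reads in untreated cells and lies at 0.441 to 0.728 of its untreated mean in the treated groups.

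The sums depend on the scale. The trimmed mean of M-values (TMM) sets a library's scale so that most genes keep their level, and its factors were 0.795 to 0.836 with IFNw in both receptor types, 0.810 to 0.826 with H11 and 1.00 to 1.02 with IFNL3 in optimized cells, 1.26 to 1.28 with H11 and IFNL3 in wild-type cells, and 1.05 to 1.07 in untreated cells. On the TMM scale the ratios to untreated cells became 0.894 with IFNw, 0.870 with H11 and 0.572 with IFNL3 in optimized cells, where the IFNw and untreated libraries overlapped, and 0.959, 0.495 and 0.496 in wild-type cells. The ratios for H11 and IFNL3 in wild-type cells and for IFNL3 in optimized cells were the ones at or under 0.601 on both scales. Transcript length moved with the same groups: across genes, Spearman's rho between length and a library's departure from the gene's mean was 0.276 to 0.293 in wild-type cells with H11 or IFNL3, near -0.30 with IFNw and with H11 in optimized cells, 0.055 to 0.062 with IFNL3 in optimized cells and 0.059 to 0.110 in untreated cells. Most member transcripts are short, against a median of 1733 bases over all genes. Coding or annotated class medians are 393 bases for H2A, 411 for H3, 435 for H4, 628.75 for H2B and 666 for H1. However, HIST1H3G (2411 bases), HIST1H2AG (2250), HIST2H2BE (2194), HIST3H2BB (2364) and HIST2H2BC (3510) are annotated above 1733, and the length offset takes them as long genes. The part of length or of scale in the histone values was not tested. Fold changes after a length offset, and with plain library totals, are therefore given beside the counts that they move most.

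The classes did not contribute equally. H4 genes took 29% of all member reads, H2A genes 23.3%, H2B genes 17.8%, H3 genes 15.9% and H1 genes 14%. In wild-type cells with H11, the plain sums were 0.478 of untreated for H3, 0.488 for H4 and 0.519 for H1, but 0.718 for H2A and 0.802 for H2B. IFNL3 in those cells gave 0.499, 0.50, 0.518, 0.714 and 0.804 for the same classes in the same order. With IFNw in wild-type cells the order differed, with H2B lowest at 0.651 and H3 highest at 0.898. With IFNL3 in optimized cells H4 was lowest, at 0.441, where the other classes lay between 0.540 and 0.626. H2B made up 23.6% of histone reads with H11 and 23.4% with IFNL3 in wild-type cells, against 17.5% in untreated wild-type cells. H4 made up 25.3% and 25.6% there, against 30.8% in untreated cells.

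Of the 52 members, 46 passed the filter on low counts and entered the fit over 12704 genes. The other 6 were HIST1H1A, HIST1H1T, the gene of a testis H1, HIST1H2AI, HIST1H2AJ, HIST1H2BA, the gene of a testis H2B, and HIST1H2BM. They had 27 to 65 reads in all and at most 12 in a library, and no change is given for them. A gene is called higher or lower below where edgeR's quasi-likelihood test gave a Benjamini-Hochberg adjusted p under 0.05 over all 12704 genes. Over the 6 comparisons of a ligand with untreated cells, which share their untreated libraries within a receptor type, 24 tested members were called lower at least once and never higher, 9 were called higher and never lower, 9 were called in both directions and 4 in none (HIST1H2BJ, HIST1H2BL, HIST1H2BO and HIST1H3H, named here for having no call). As shares of the tested members these are 52.2%, 19.6%, 19.6% and 8.7%, against 28.0%, 26.4%, 12.9% and 32.6% of all genes in the same order. HIST1H2AE, HIST1H2BC, HIST1H2BD, HIST1H3B and HIST1H4E were the members called lower in 6 of 6 (10.9%, against 1.61% of all genes), HIST1H2BD with any single library left out as well. HIST1H2BC lost its calls with H11 and IFNL3 in wild-type cells with plain totals (-0.28 and -0.24). In fits of the 2 groups alone in optimized cells, HIST1H2BC lost the IFNw call (-0.56) and HIST1H3B the IFNw and H11 calls (-0.41 and -0.47). No member was called higher in more than 4, against 2.45% of all genes.

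**Figure D2:**
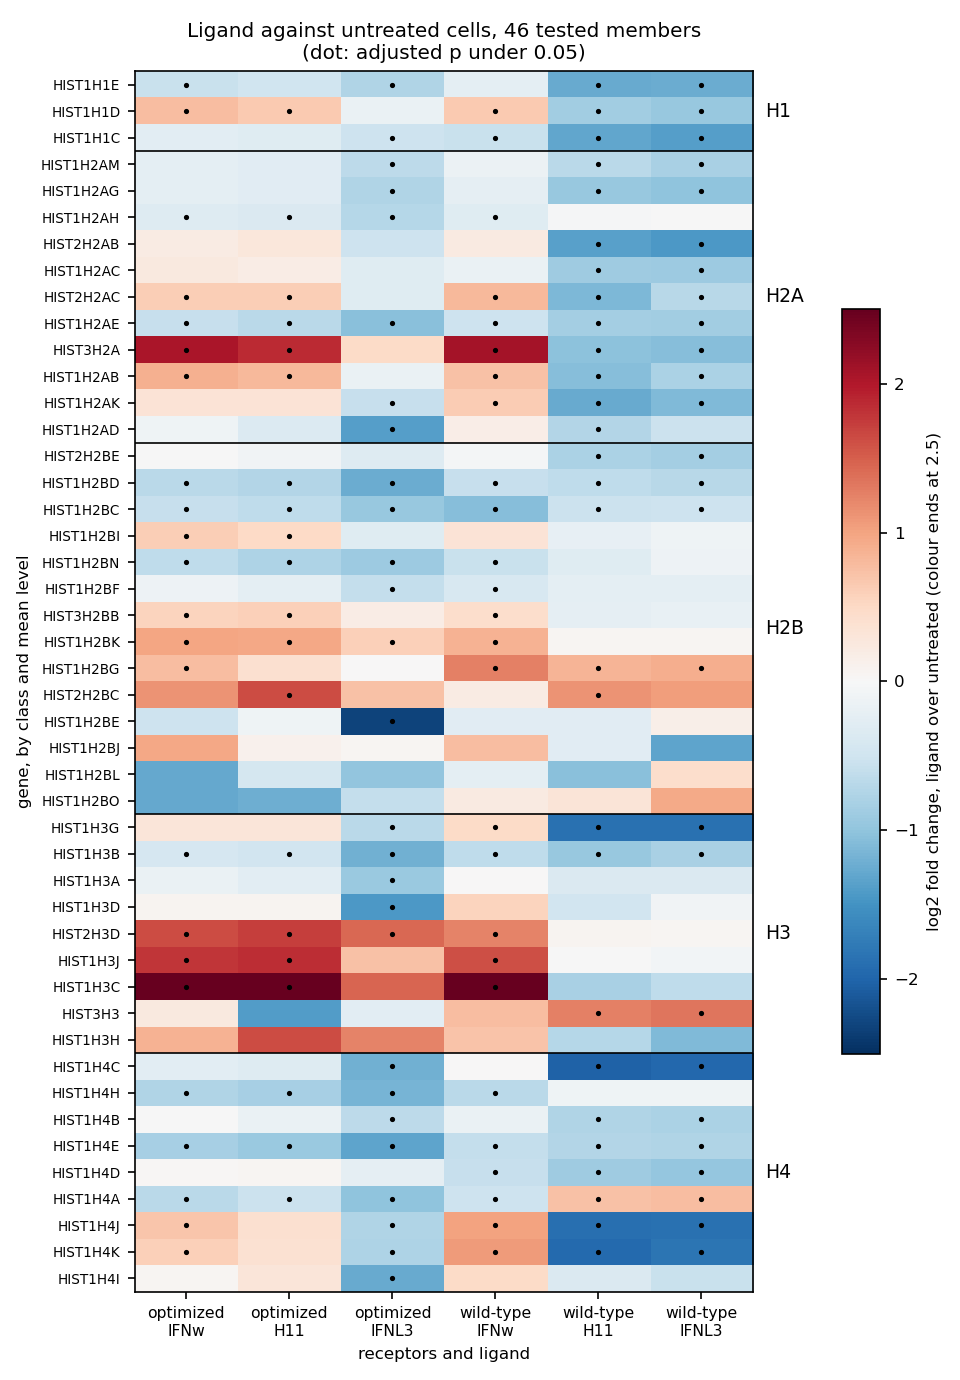
Heat map of the log2 fold change of the 46 tested members (rows, by class and mean level), ligand over untreated cells of the same receptor type (columns), on the TMM scale; red is higher, blue lower, and a dot marks an adjusted p under 0.05. Dots lie on red and blue rows with IFNw and with H11 in optimized cells, and mostly on blue rows with H11 and IFNL3 in wild-type cells and IFNL3 in optimized cells.

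With IFNw, the clustered histone genes split by gene and not as a block. In wild-type cells 14 of 46 tested members were called higher and 12 lower, against 16.6% and 14.8% of all genes, with a median log2 fold change of 0.18 for the members and -0.05 for all genes. In optimized cells 13 were called higher and 10 lower, against 17.5% and 15.9% of all genes, with medians of 0.04 and -0.04. The higher share depended on the scale. With a length offset the split was 12 higher and 13 lower in wild-type cells and 8 and 14 in optimized cells. Of all genes called with that offset, 1828 of 3415 and 1847 of 3794 were higher. Plain totals gave 9 and 19 and then 7 and 17, and shift the median of all genes by -0.40 and -0.43. Of all genes called with plain totals, 1146 of 5694 and 1103 of 5911 were higher. Without the second untreated wild-type library the wild-type count was 11 higher and 6 lower. A fit of the optimized IFNw and untreated libraries alone called 7 higher and 4 lower, where 1298 of all 2052 called genes were higher.

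The steepest rise was in HIST1H3C, which encodes histone H3.1. It had 12.2 and 10.2 TMM-scaled CPM in wild-type cells with IFNw, against 0.76 and 1.20 in untreated wild-type cells. In optimized cells it had 11.2 and 14.3 with IFNw and 9.75 and 10.1 with H11, against 1.53 and 0.35 untreated. The treated libraries lay far above the untreated ones, which held 19 reads together in wild-type cells and 17 in optimized cells. The rises were 11.3-fold with IFNw in wild-type cells (log2 3.49 ± 0.46 SE, adjusted p = 2e-05), 11.9-fold with IFNw in optimized cells (3.57 ± 0.47, adjusted p = 1.9e-05) and 9.22-fold with H11 in optimized cells (3.21 ± 0.48, adjusted p = 6.9e-05). With a length offset these were 3.21, 3.26 and 2.91, and with plain totals 3.15, 3.18 and 2.84. IFNL3 gave 2.14 and 3.79 in optimized cells, a log2 difference of 1.46 ± 0.53 that was not called (adjusted p = 0.079). In wild-type cells the gene stood at 0.870 and 0.248 with H11 and 0.358 and 0.897 with IFNL3, within the range of the untreated libraries or under it, and was not called.

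HIST3H2A, an H2A gene of the small HIST3 cluster, rose with the same ligands. Its level was 435 and 262 in wild-type cells with IFNw, against 92.8 and 72.6 untreated (log2 2.08 ± 0.30, adjusted p = 4.5e-05). In optimized cells it was 364 and 235 with IFNw, 312 and 218 with H11 and 114 and 90.5 with IFNL3, against 81.5 and 64.3 untreated. Every library with ligand lay above the untreated ones. The log2 changes were 2.03 ± 0.30 with IFNw and 1.86 ± 0.30 with H11, both called, and 0.48 ± 0.29 with IFNL3, not called. In wild-type cells with H11 or IFNL3 it was called lower, at 47.0 and 33.8 with H11 and 51.4 and 28.0 with IFNL3 (log2 -1.03 and -1.06). Both of these calls were lost without the first untreated library (-0.85 and -0.87) and without the second library of the ligand (-0.81 with H11 and -0.68 with IFNL3).

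HIST2H3D, which encodes histone H3.2, HIST1H3J, an H3.1 gene, and HIST1H2BK, an H2B gene, moved the same way. HIST2H3D had 17.0 and 20.2 in wild-type cells with IFNw, against 7.81 and 7.98 untreated. In optimized cells it had 17.0 and 18.4 with IFNw, 20.3 and 17.2 with H11 and 14.3 and 16.6 with IFNL3, against 7.33 and 3.5 untreated. No untreated library reached a treated one of these groups. Its log2 changes were 1.24 ± 0.26 in wild-type cells with IFNw and 1.64, 1.72 and 1.44 (SE 0.27 each) in optimized cells with IFNw, H11 and IFNL3, all called, although a fit of the IFNL3 and untreated optimized libraries alone did not call the last. HIST2H3D showed 0.07 ± 0.26 with H11 and 0.05 ± 0.26 with IFNL3 in wild-type cells, where neither was called. HIST1H3J was called higher with IFNw (1.6 ± 0.29 in wild-type and 1.79 ± 0.30 in optimized cells) and with H11 in optimized cells (1.85 ± 0.30). HIST1H2BK rose by 0.87 and 0.98 (SE 0.15 each) with IFNw and by 0.97 ± 0.15 with H11 in optimized cells. The linker histone gene HIST1H1D rose by 0.66, 0.78 and 0.66 (SE 0.11 each) in the same 3 comparisons, with 607 and 597 in wild-type cells with IFNw against 397 and 366 untreated.

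**Figure D3:**
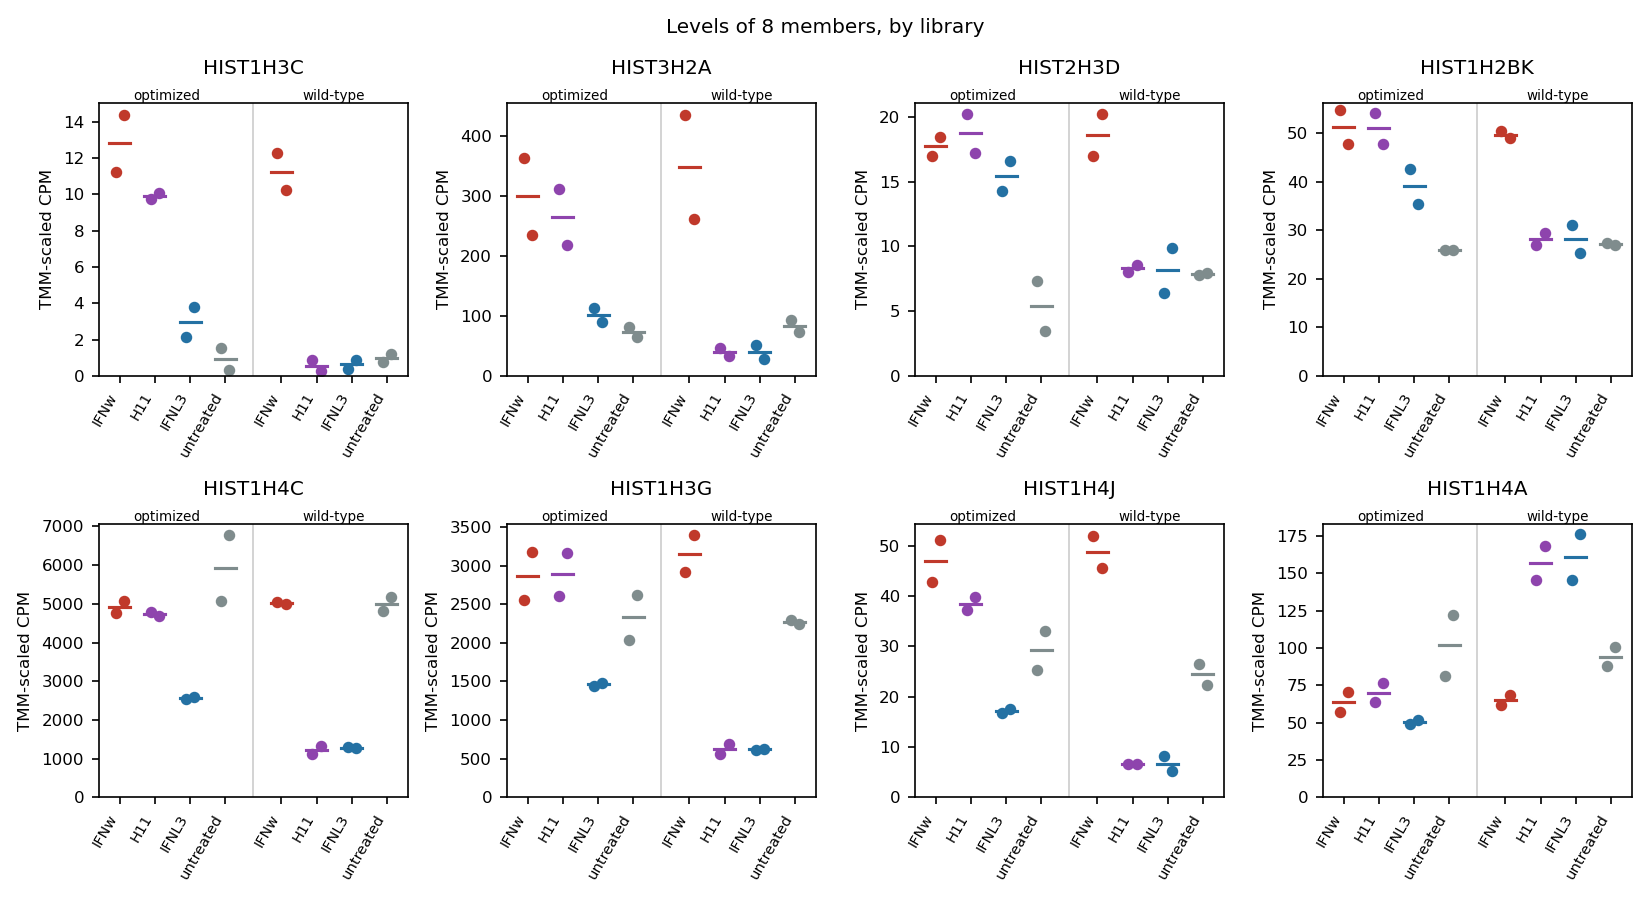
TMM-scaled CPM of 8 members, one panel each on its own linear axis, in the 8 groups; points are libraries and lines the mean of 2. HIST1H3C and HIST3H2A are high with IFNw in both receptor types and with H11 in optimized cells, HIST1H4C, HIST1H3G and HIST1H4J are low with H11 and IFNL3 in wild-type cells, and HIST1H4A is high there.

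Among members called lower with IFNw were HIST1H2BC and HIST1H2BD of H2B, HIST1H3B of H3, and HIST1H4E and HIST1H4H of H4. HIST1H2BC stood at 243 and 234 in wild-type cells with IFNw, against 512 and 479 untreated, a fall of 1.06 on the log2 scale (SE 0.12, adjusted p = 5.7e-06). HIST1H4H had 498 and 547 in wild-type cells with IFNw, against 785 and 879 untreated, and 488 and 571 in optimized cells with IFNw, against 785 and 999 untreated. It fell by 0.67 ± 0.14 and by 0.75 ± 0.14. HIST1H2BD fell by 0.58 ± 0.11 and by 0.67 ± 0.11. HIST1H4E had log2 changes of -0.60 ± 0.16 in wild-type cells, a call lost without either the first IFNw library (-0.46) or the second untreated library (-0.55), and -0.82 ± 0.16 in optimized cells. HIST1H4C, the H4 gene with the most reads, did not follow: it had 5048 and 5001 in wild-type cells with IFNw and 4807 and 5182 untreated (log2 0.01, 95% interval -0.26 to 0.27).

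In wild-type cells given H11 or IFNL3, more members were called lower than higher on either scale. With H11, 4 of 46 were called higher and 24 lower, against 18.2% and 20.6% of all genes, and the medians were -0.72 for the members and -0.02 for all genes. With IFNL3, 3 were called higher and 23 lower, against 18.7% and 21.1% of all genes, with medians of -0.69 and -0.01. A fall of histone genes in these cells was known before the members were drawn up, so its direction is a description. By class, 3 of 3 H1, 10 of 11 H2A, 3 of 14 H2B, 2 of 9 H3 and 6 of 9 H4 genes were called lower with H11, and 2 H2B, 1 H3 and 1 H4 gene higher. With IFNL3 the lower calls were 3, 9, 3, 2 and 6 in the same class order. With plain totals the counts were 4 higher and 22 lower with H11 and 5 and 21 with IFNL3. Plain totals shift the median of all genes by 0.25 and 0.27 here. Of all genes called with them, 4039 of 5628 and 4194 of 5790 were higher.

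HIST1H4C fell most steeply. It had 1133 and 1327 in wild-type cells with H11 and 1290 and 1278 with IFNL3, against 4807 and 5182 untreated. The levels with ligand lay about as close to each other as replicates did. The falls were 4.06-fold with H11 (log2 -2.02 ± 0.13, adjusted p = 4.6e-09) and 3.89-fold with IFNL3 (-1.96 ± 0.13, adjusted p = 7.3e-09), and -1.90 and -1.86 with a length offset. HIST1H3G, an H3.1 gene, had 563 and 687 with H11 and 612 and 632 with IFNL3, against 2299 and 2248 untreated (log2 -1.86 and -1.87, SE 0.15 each). HIST1H4J and HIST1H4K, both H4 genes, showed -1.88 ± 0.21 and -1.95 ± 0.24 with H11 and -1.86 ± 0.21 and -1.83 ± 0.24 with IFNL3. The reading frames of these 2 genes differ at 0 of 312 bases, so how the authors' counting divided their reads is uncertain and they may not be independent of each other.

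H2A and H1 genes followed with smaller falls. HIST2H2AB, an H2A gene of the HIST2 cluster, had 257 and 339 with H11 and 258 and 302 with IFNL3, against 701 and 817 untreated (log2 -1.35 and -1.44, SE 0.20 each). The linker gene HIST1H1E had 1060 and 1228 with H11 and 1044 and 1255 with IFNL3, against 2360 and 3101 untreated. Its log2 changes were -1.26 ± 0.19 and -1.25 ± 0.19. HIST1H1C showed -1.30 and -1.38, and HIST1H1D, which rose with IFNw, showed -0.87 and -0.95. By contrast HIST1H2AH, an H2A gene with many reads, had 781 and 818 with H11, against 823 and 817 untreated (log2 -0.04, 95% interval -0.25 to 0.18). HIST1H4H likewise had 699 and 835 with H11, against 785 and 879 untreated, and was not called (-0.12 ± 0.14).

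A few members rose in wild-type cells with H11 and IFNL3. HIST1H4A had 145 and 168 with H11 and 145 and 176 with IFNL3, against 87.9 and 100.4 untreated, a rise of 0.73 and 0.77 on the log2 scale (SE 0.18 each). The same gene fell with IFNL3 in optimized cells, to 48.9 and 52.1, against 81.3 and 122 untreated (-1.0 ± 0.18), a call lost in a fit of those 2 groups alone. HIST1H2BG, called higher at 0.84 and 0.90, lost both calls without the first untreated library (0.67 and 0.73) and without the second library of the ligand (0.73 and 0.84). HIST3H3, the gene of a testis H3, rested on few reads: 56 with H11, 56 with IFNL3 and 19 untreated, with calls at 1.25 and 1.33 that were not made by DESeq2 or with no filter. The H11 call was lost with any 1 of the 4 libraries left out (1.12 to 1.39), and the IFNL3 call without either untreated library or the first IFNL3 library (1.05 to 1.47). HIST2H2BC, annotated as a pseudogene, was called at 1.12 with H11 and lost that call with any 1 of the 4 libraries left out (1.02 to 1.22).

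In optimized cells, H11 gave a mixed pattern and IFNL3 a general fall. With H11, 11 of 46 members were called higher and 9 lower, against 17.2% and 15.2% of all genes, and the medians were -0.02 for the members and -0.03 for all genes. With a length offset this split was 9 higher and 16 lower, and with plain totals 8 and 20 (all genes shifted by -0.40). In a fit of these 2 groups alone it was 7 and 6. Of all genes called in these fits, 1802 of 3704, 1118 of 5690 and 1256 of 2021 were higher, in the same order. With IFNL3, 2 were called higher and 25 lower, against 7.26% and 6.05% of all genes, with medians of -0.62 and -0.01. The lower calls took in 2 of 3 H1, 6 of 11 H2A, 5 of 14 H2B, 4 of 9 H3 and 8 of 9 H4 genes. The split with IFNL3 was 2 and 25 with a length offset, 2 and 26 with plain totals, and 0 and 10 in a fit of the 2 groups alone. Of all genes called in these fits, 809 of 1649, 727 of 1730 and 131 of 225 were higher, in the same order. The main fit called 922 genes higher and 768 lower, so calls fell for all genes in the fit of the 2 groups alone. The member median in that fit was -0.66. Fewer members were also called without either IFNL3 library or without the second untreated library.

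With IFNL3 in optimized cells HIST1H4C had 2530 and 2588, against 5063 and 6774 untreated, a 2.31-fold fall (log2 -1.21 ± 0.13, adjusted p = 4.4e-06). HIST1H3B had 487 and 502, against 1161 and 1111 untreated (-1.20 ± 0.11, adjusted p = 3.7e-07), and HIST1H2BD 534 and 551, against 1155 and 1404 (-1.24 ± 0.11). For these genes every treated library lay below every untreated one by a wide gap. HIST1H4E showed -1.31 ± 0.16, HIST1H4H -1.16 ± 0.15 and HIST1H2BC -0.95 ± 0.12. HIST1H2BE showed the largest value, -2.32 ± 0.50, on 11 reads with IFNL3 and 48 untreated, and its call was lost without the first untreated library (-1.70) or the second IFNL3 library (-1.84) and in DESeq2. The 2 higher calls with IFNL3 were HIST2H3D and HIST1H2BK (0.59 ± 0.15), and that of HIST1H2BK was lost without the first IFNL3 library (0.46) or the second untreated library (0.59). With H11 in the same cells HIST1H4C had 4792 and 4674 (-0.32 ± 0.13, not called, adjusted p = 0.06), while HIST1H4E fell by 0.92 ± 0.16, HIST1H4H by 0.83 ± 0.15, HIST1H2BN by 0.77 ± 0.14 and HIST1H2BD by 0.73 ± 0.11.

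Between receptor types, the untreated cells and the cells with IFNw had no called member (0 of 46 each, against 0% of all 12704 genes each). Unadjusted p-values under 0.05 numbered 2 members and 705 genes in untreated cells and 3 members and 439 genes with IFNw, and DESeq2 called 0 members in both. For 37 members in untreated cells and 40 with IFNw, the 95% interval of the difference lay within 2-fold. The difference between the 2 IFNw responses had 0 called members as well (3 at an unadjusted p under 0.05, against 633 of all genes, and 0 by DESeq2), with 30 intervals within 2-fold. Leaving out the first untreated optimized library gave some member calls between the untreated groups and in the difference of IFNw responses. Calls over all genes in those fits are not given here, so a change of the members cannot be told from a general one. The library then left in that group has the lowest total of any, 5331203 reads. The untreated optimized pair was also the least alike: its replicates differed by a median of 0.34 on the log2 scale over the members, against 0.14 to 0.20 in the other groups.

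With H11, optimized cells had higher levels than wild-type cells in 26 of 46 members and lower in 4, against 25.6% and 26.1% of all genes, with a median of 0.73. The split was 21 and 7 with a length offset and 13 and 12 with plain totals, which shift the median of all genes by -0.68. Of all genes called in these fits, 2871 of 5872 and 1502 of 8299 were higher. HIST1H3C had 9.75 and 10.1 in optimized cells, against 0.870 and 0.248 in wild-type cells (log2 4.13 ± 0.49, adjusted p = 2.3e-06). HIST1H4C had 4792 and 4674, against 1133 and 1327 (1.94 ± 0.13), and HIST1H3G 2608 and 3165, against 563 and 687 (2.21 ± 0.15). HIST1H4A was lower in optimized cells, at 63.6 and 76.3, against 145 and 168 (-1.16 ± 0.18). The other lower calls were HIST3H3 (-2.52 ± 0.54), HIST1H4H (-0.61 ± 0.14) and HIST1H2BN (-0.42 ± 0.14), whose call was lost without the first optimized H11 library (-0.29) or the second wild-type one (-0.22). The difference between the H11 responses was called in 23 members upward and 3 downward, against 19.5% and 17.4% of all genes. That split became 18 and 7 with a length offset and 13 and 11 with plain totals, where 2006 of 4053 and 1140 of 6488 of all called genes went upward. HIST1H3C (4.02 ± 0.83) and HIST3H2A (2.89 ± 0.42) led the upward calls.

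With IFNL3, 17 members were higher and 11 lower in optimized than in wild-type cells, against 18.1% and 15.1% of all genes, with a median of 0.31. Plain totals gave 9 higher and 21 lower, with all genes shifted by -0.34, where 1206 of all 5608 called genes were higher. Fewer members were called with any single library of these groups left out. HIST1H4C had 2530 and 2588 in optimized cells, against 1290 and 1278 in wild-type cells (0.99 ± 0.13). HIST1H4A had 48.9 and 52.1, against 145 and 176 (-1.67 ± 0.18), and HIST1H4H 367 and 430, against 715 and 828 (-0.95 ± 0.15). The difference between the IFNL3 responses was called upward in 13 members and downward in 7, against 11.1% and 7.31% of all genes. That split was 10 and 11 with a length offset, 4 and 15 with plain totals (all genes shifted by -0.33) and 6 and 6 in a fit of the 4 groups alone. Of all genes called in these fits, 1030 of 1930, 727 of 3338 and 935 of 1538 went upward, in the same order. Fewer members were called with any single IFNL3 library or any single untreated wild-type library left out.

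H11 and IFNL3 differ in affinity for the receptor, per the labels, at the same dose. In optimized cells, 24 members were higher with H11 than with IFNL3 and 0 lower, against 10.7% and 6.86% of all genes, with a median of 0.49. Unadjusted p-values under 0.05 numbered 33 members and 3961 genes. DESeq2 called 27 members higher and 0 lower, the length offset 19 and 0, and plain totals 16 and 0. Of all genes called in these fits, 1472 of 2234, 959 of 1645 and 512 of 3822 were higher, in the same order. Plain totals shift the median of all genes by -0.32 and left a member median of 0.18, and the calls lost there include HIST1H2AD, HIST1H2AG, HIST1H2AH, HIST1H2BD, HIST1H3A and HIST2H2AB. HIST1H3G had 2608 and 3165 with H11, against 1447 and 1482 with IFNL3 (log2 0.98 ± 0.15, adjusted p = 0.00035). HIST1H4C differed by 0.89 ± 0.13, HIST1H1D by 0.82 ± 0.11 and HIST1H3B by 0.73 ± 0.10. HIST1H3D, an H3.1 gene, showed 1.51 ± 0.23 and HIST1H4I 1.56 ± 0.30. In wild-type cells 0 of 46 members were called between H11 and IFNL3, against 0% of all genes (2 members and 158 genes at an unadjusted p under 0.05, 0 members by DESeq2). There the 95% interval lay within 2-fold for 40 members and reached 2-fold for 6, the interval's half-width having a median of 0.36 on the log2 scale.

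**Figure D4:**
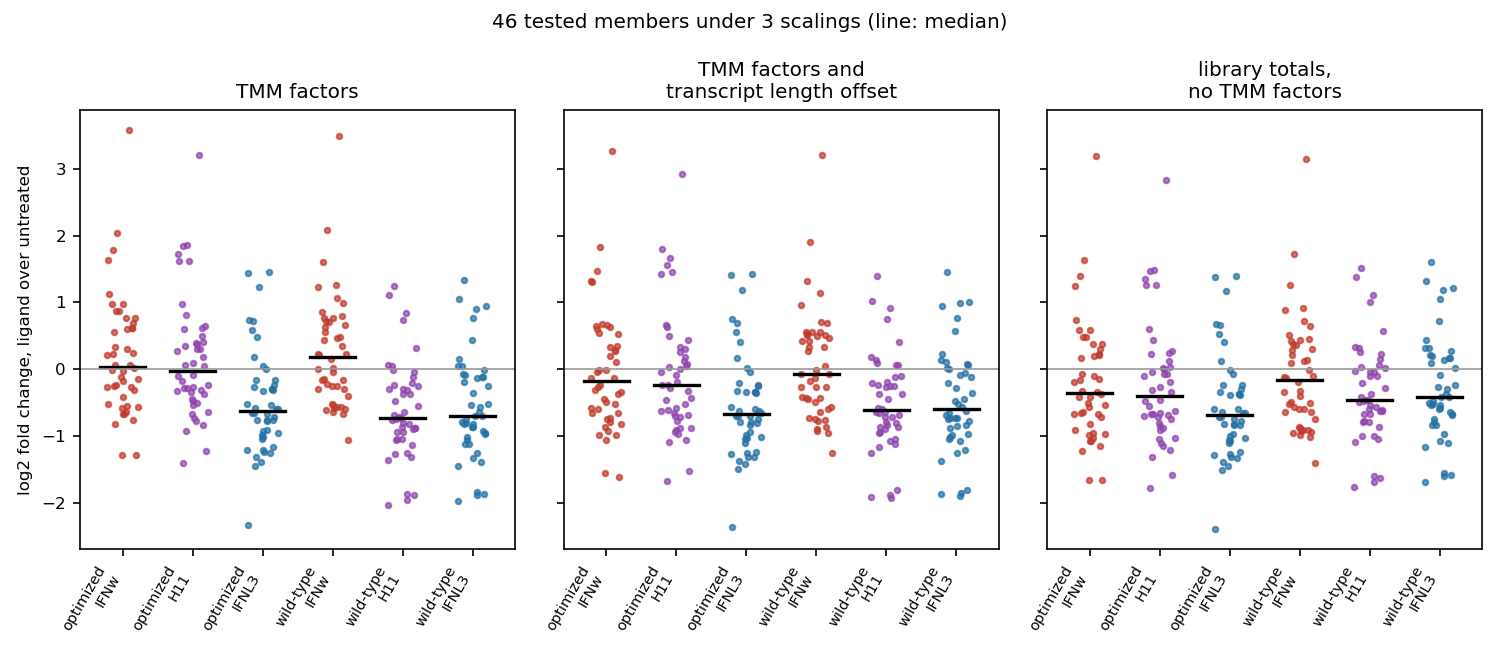
Log2 fold change of the 46 tested members, ligand over untreated cells of the same receptor type, under TMM factors, TMM factors with a transcript length offset, and plain library totals; each point is a gene and the line the median. The medians for IFNL3 in optimized cells (-0.62, -0.67 and -0.68) stay together, those for H11 in wild-type cells are -0.72, -0.61 and -0.46, and the one for IFNw in wild-type cells is 0.18 under TMM factors and -0.16 under plain totals.

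Histone genes outside the clusters were compared as a list of 12, of which 9 were tested. Values of this list and of those below are on the TMM scale, with no length offset or plain totals beside them. The part of transcript length or of scale in them was not tested. In wild-type cells 3 rose and 0 fell with IFNw, 0 rose and 4 fell with H11, and 0 rose and 4 fell with IFNL3. Of all genes 16.6% rose and 14.8% fell with IFNw, 18.2% and 20.6% with H11, and 18.7% and 21.1% with IFNL3 in these cells. In optimized cells the counts were 2 and 1, 2 and 1, and 0 and 1 with IFNw, H11 and IFNL3, against 17.5% and 15.9%, 17.2% and 15.2%, and 7.26% and 6.05% of all genes. The list's median log2 changes were 0.15, -0.22 and -0.25 in wild-type cells and 0.13, 0.05 and -0.15 in optimized cells, where those of all genes were -0.05, -0.02 and -0.01 and then -0.04, -0.03 and -0.01. H1FX, a linker variant, showed -1.22 ± 0.12 and -1.19 ± 0.12 in wild-type cells with H11 and IFNL3, and H3F3A, an H3.3 gene, -0.75 ± 0.12 and -0.77 ± 0.12. H3F3B, the other H3.3 gene, rose by 0.53 ± 0.12 with IFNw in wild-type cells and was not called with H11 or IFNL3 there (-0.22 and -0.25).

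Genes for transcription and 3′ processing of histone mRNA were a list of 29, with 28 tested. In wild-type cells 8 rose and 4 fell with IFNw, 8 and 3 with H11, and 7 and 3 with IFNL3, and in optimized cells 8 and 3, 7 and 4, and 5 and 0. The wild-type counts are 28.6% and 14.3% of the list, against 16.6% and 14.8% of all genes, with IFNw, 28.6% and 10.7%, against 18.2% and 20.6%, with H11, and 25.0% and 10.7%, against 18.7% and 21.1%, with IFNL3. In optimized cells they are 28.6% and 10.7%, against 17.5% and 15.9%, then 25.0% and 14.3%, against 17.2% and 15.2%, and 17.9% and 0%, against 7.26% and 6.05%. The share that fell with IFNw in wild-type cells was thus near that of all genes. The medians were 0.09, 0.20 and 0.21, and then 0.16, 0.14 and 0.23. The U7 component LSM10 rose by 1.39 ± 0.19 and 1.10 ± 0.19 with IFNw in wild-type and optimized cells and by 1.05 ± 0.19 with H11 in optimized cells, and fell by 0.88 ± 0.20 and by 0.94 ± 0.20 with H11 and IFNL3 in wild-type cells. The Sm proteins that U7 shares with spliceosomal particles included SNRPG, at 1.94, 1.67 and 1.66 (SE 0.13 each) in the first 3 of these comparisons and -0.72 and -0.73 in the others. LSM10 and SNRPG, like HAT1 below, rose in the groups with a negative rho for transcript length and fell in those with the highest rho. NPAT, the coactivator of histone gene transcription, and SLBP are named after their values were seen. NPAT was called lower with IFNw in wild-type cells (-0.72 ± 0.18) and with IFNw and H11 in optimized cells (-0.76 ± 0.18 and -0.73 ± 0.18), and not with H11 or IFNL3 in wild-type cells (0.25 and 0.30) or with IFNL3 in optimized cells (-0.17). SLBP rose by 0.52 ± 0.11 with IFNw, 0.30 ± 0.11 with H11 and 0.31 ± 0.11 with IFNL3 in wild-type cells. In optimized cells it showed similar values that were not called: 0.28 ± 0.11 with IFNw, 0.27 ± 0.11 with H11 and 0.32 ± 0.11 with IFNL3 (adjusted p = 0.059, 0.077 and 0.067).

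Histone chaperones and assembly factors, a list of 24 that were all tested, gave 3 higher and 8 lower with IFNw, 9 and 1 with H11, and 11 and 2 with IFNL3 in wild-type cells, and 3 and 8, 3 and 8, and 2 and 0 in optimized cells. In wild-type cells these are 12.5% and 33.3% of the list, against 16.6% and 14.8% of all genes, with IFNw, 37.5% and 4.17%, against 18.2% and 20.6%, with H11, and 45.8% and 8.33%, against 18.7% and 21.1%, with IFNL3. In optimized cells they are 12.5% and 33.3% with IFNw and with H11, against 17.5% and 15.9% and then 17.2% and 15.2%, and 8.33% and 0% with IFNL3, against 7.26% and 6.05%. The medians were -0.17, 0.35 and 0.33, and then -0.29, -0.26 and 0.04. HAT1, which acetylates newly made H4, rose by 1.23 ± 0.14 and 1.57 ± 0.14 with IFNw and by 1.62 ± 0.14 with H11 in optimized cells, and fell by 0.59 ± 0.14 and by 0.56 ± 0.14 with H11 and IFNL3 in wild-type cells. CHAF1A, a subunit of the assembly factor CAF-1, was called in the opposite directions: 0.70 and 0.76 in wild-type cells with H11 and IFNL3, and -0.78 and -0.75 in optimized cells with IFNw and H11.

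S-phase genes show whether other genes of DNA replication moved with the histones. Of 37 listed, 36 were tested. In wild-type cells 7 rose and 6 fell with IFNw, 12 rose and 3 fell with H11, and 10 rose and 4 fell with IFNL3. As shares of the list these are 19.4% and 16.7%, near the 16.6% and 14.8% of all genes, with IFNw, 33.3% and 8.33%, against 18.2% and 20.6%, with H11, and 27.8% and 11.1%, against 18.7% and 21.1%, with IFNL3. In optimized cells the counts were 5 and 7, 7 and 6, and 5 and 1, or 13.9% and 19.4% of the list with IFNw, 19.4% and 16.7% with H11, and 13.9% and 2.78% with IFNL3, against 17.5% and 15.9%, 17.2% and 15.2%, and 7.26% and 6.05% of all genes. The medians were -0.06, 0.21 and 0.24, and then 0.09, 0.11 and 0.01. PRIM1, a primase subunit, fell by 1.13 ± 0.16 and by 0.94 ± 0.16 in wild-type cells with H11 and IFNL3, whereas POLA1, the catalytic subunit of its polymerase partner, rose by 0.50 ± 0.14 and by 0.60 ± 0.14. The list thus had more higher than lower calls in wild-type cells with H11 or IFNL3, where the clustered histone genes had more lower calls. The difference between the lists was not tested, nor was the part of transcript length or of scale in it.

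Promoter sequences are shown for 3 H3 genes and 1 H2A gene that moved in different ways. RefSeq (GRCh38.p14) gave a promoter of 300 bases, 250 before and 50 after the start, for 47 of the 52 members. In each sequence, written 5′ to 3′ on the gene's strand, capitals mark the CCAAT box (CCAAT or its complement on the other strand), the TATA box TATAAA, the H2B octamer ATTTGCAT and the core of the interferon-stimulated response element (ISRE), GAAA and GAAA parted by any 2 bases. HIST1H3C (chr6:26045134-26045433, plus strand) rose with IFNw, and HIST1H3G (chr6:26271364-26271663, minus strand) fell with H11 and IFNL3 in wild-type cells. HIST2H3D (chr1:149813644-149813943, minus strand) rose in 4 of the 6 comparisons with untreated cells, and HIST3H2A (chr1:228457824-228458123, minus strand) in 3.
HIST1H3C: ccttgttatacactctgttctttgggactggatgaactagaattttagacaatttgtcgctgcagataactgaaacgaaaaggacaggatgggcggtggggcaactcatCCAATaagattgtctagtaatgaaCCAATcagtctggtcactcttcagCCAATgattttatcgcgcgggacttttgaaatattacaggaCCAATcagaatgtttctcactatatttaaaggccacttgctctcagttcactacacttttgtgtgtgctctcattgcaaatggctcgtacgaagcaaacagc
HIST1H3G: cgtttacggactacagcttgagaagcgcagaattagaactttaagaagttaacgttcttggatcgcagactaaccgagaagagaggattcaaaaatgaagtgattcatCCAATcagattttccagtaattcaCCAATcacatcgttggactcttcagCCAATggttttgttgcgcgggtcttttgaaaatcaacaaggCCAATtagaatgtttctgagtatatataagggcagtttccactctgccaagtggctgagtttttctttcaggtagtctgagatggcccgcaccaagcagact
HIST2H3D: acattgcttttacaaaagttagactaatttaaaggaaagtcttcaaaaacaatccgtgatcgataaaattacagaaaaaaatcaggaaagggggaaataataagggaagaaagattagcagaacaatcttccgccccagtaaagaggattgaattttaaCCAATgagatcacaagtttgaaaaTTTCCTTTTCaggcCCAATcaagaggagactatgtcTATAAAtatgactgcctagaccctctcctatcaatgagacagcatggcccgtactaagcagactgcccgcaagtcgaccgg
HIST3H2A: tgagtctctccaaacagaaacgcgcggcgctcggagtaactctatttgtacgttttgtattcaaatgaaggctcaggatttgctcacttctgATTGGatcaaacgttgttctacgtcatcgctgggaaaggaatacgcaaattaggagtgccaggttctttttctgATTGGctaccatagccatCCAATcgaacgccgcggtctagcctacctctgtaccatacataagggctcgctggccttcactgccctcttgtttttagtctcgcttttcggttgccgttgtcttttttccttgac
HIST1H3C and HIST1H3G each hold 4 CCAAT boxes and no match to the other motifs, and their levels are given above. HIST2H3D holds 2 CCAAT boxes, a TATA box and a match to the ISRE core, and HIST3H2A 3 CCAAT boxes. All motifs were searched on both strands and a match is a description of letters only.

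Over the 47 promoters, the CCAAT box was found in 87.2%, against 35.7% of all 27305 promoters, and the TATA box in 68.1%, against 12% of all promoters. CCAAT was present in every promoter of the H1, H2A, H2B and H3 members examined but in 1 of 7 of H4. The octamer was in 44.7% of member promoters, against 1.8% of all: 11 of 15 of H2B, 9 of 12 of H2A, 1 of 8 of H3 and 0 of H1 and H4. The H3 promoter is that of HIST1H3D, whose window is the same as that of the H2A gene HIST1H2AD (chr6:26199244-26199543, minus strand). The 47 promoters are thus 46 distinct windows, and this octamer is counted under both classes. These windows are not all separate stretches of DNA. In the 11 head-to-head pairs given below the starts lie 194 to 248 bases apart, and each window reaches 250 bases before its start. A motif between such starts is counted for both genes, so the H2A and H2B counts of the octamer are not independent. The ISRE core was in 5 member promoters (10.6%), against 3.65% of all promoters. They were those of HIST1H2BE, HIST1H2BI, HIST1H2BJ, HIST1H3H and HIST2H3D. Of these 5 genes HIST2H3D was called higher with IFNw in both receptor types and with H11 and IFNL3 in optimized cells. HIST1H2BI was called higher with IFNw and with H11 in optimized cells. Its IFNw call was lost without the first IFNw library (0.50) or the second untreated library (0.55). That call was also lost with a length offset (0.27), plain totals (0.22) or the 2 groups alone (0.62). Its H11 call was lost with a length offset (0.18), plain totals (0.12) or the 2 groups alone (0.50). The other 3 were not called higher with any ligand.

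Histone genes often lie head to head and share a promoter region. There were 11 such pairs with 194 to 248 bases between the starts, most of an H2A with an H2B gene, and 9 had both genes tested. In each comparison of a ligand with untreated cells, 0 to 2 of these 9 were called in opposite directions. Some other pairs had both genes called lower, with H11 and IFNL3 in wild-type cells or with IFNL3 in optimized cells. HIST1H2AD and HIST1H3D, which have the same annotated start, each form a pair with HIST1H2BF, so the 11 pairs come from 10 shared regions. HIST3H2A and HIST3H2BB, 230 bases apart, were both called higher with IFNw, at 2.08 and 0.44 in wild-type cells and 2.03 and 0.56 in optimized cells, and with H11 in optimized cells at 1.86 and 0.60. HIST1H2BG and HIST1H2AE, 233 bases apart, were called in opposite directions: 1.26 and -0.52 with IFNw in wild-type cells, 0.77 and -0.58 with IFNw in optimized cells, 0.84 and -0.86 with H11 and 0.90 and -0.87 with IFNL3 in wild-type cells. Of these, the HIST1H2AE call with IFNw in wild-type cells was lost without the first (-0.40) or second (-0.55) IFNw library or the second untreated one (-0.45). In optimized cells with IFNw the HIST1H2AE call was lost without the first IFNw library (-0.36) or in a fit of the 2 groups alone (-0.58). That of HIST1H2BG in the same comparison was lost without the first untreated library (0.40) or the second IFNw library (0.68), and also with DESeq2 (0.79), a length offset (0.63), plain totals (0.38), the 2 groups alone (0.76) and without the wild-type H11 and IFNL3 libraries (0.77). Another pair, HIST1H2AK and HIST1H2BN, 194 bases apart, showed 0.63 and -0.56 with IFNw in wild-type cells, both called, the HIST1H2BN call being lost without the first untreated (-0.49), the first IFNw (-0.49) or the second IFNw library (-0.54).

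Members of a class resemble each other in sequence, which bounds how well reads can be assigned. Over pairs of equal length, the median identity of reading frames was 85.2% in H2A (46 pairs), 90.0% in H2B (78 pairs), 84.4% in H3 (36 pairs) and 84.0% in H4 (36 pairs). HIST1H4J and HIST1H4K were the pair at 100%. The positions and lengths of the counted targets were not stated in the labels or files, so fold changes are compared between groups for each gene. The shares of reads by class and the choice of members by reads describe reads, not RNA molecules per gene.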

How the data were processed

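RNA of HEK293 cells was counted in 16 libraries (8 groups of 2). The deposited files hold whole-number read counts per target for each library, not normalized by the authors, per the file headers. Reads were placed on hg19, as the submitters' processing notes record. The aligner, the counter, any use of strand and the handling of reads shared by similar genes were not given in the sources used here. Libraries were made from 1 ug of total RNA with an Ion Torrent kit, per the labels' protocols. Of 20812 targets, 10 spike-ins were left out. Intervals cover the spread between libraries.

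The test was edgeR 4.0.16 under R 4.3.3 (low-count filter filterByExpr, TMM, quasi-likelihood fit of all 16 libraries, one coefficient per group; 12704 genes; Benjamini-Hochberg threshold 0.05; biological coefficient of variation 13.3%). The code was tested on simulated data. Alternatives were DESeq2 1.42.0, its size factors, no filter, a replicate block, the compared groups alone, a length offset (spline, 5 degrees of freedom) and each library left out. Plain totals, and a fit without the wild-type H11 and IFNL3 libraries, were added after seeing the data. Replicates differed by more than sampling noise in every group (chi-square per degree of freedom 6.58 to 26.1).

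The members, lists and comparisons were chosen with earlier results of these data known. Named members are the 4 of highest mean CPM in each class and up to 5 per direction and comparison with the largest called change at a mean of 2 CPM or more. Also named are called members where a direction has 5 or fewer, those at the read limit, and up to 4 genes of each other list. Genes named outside the rule are HIST1H2AI, HIST1H2AJ, HIST1H2AK, HIST1H2BJ, HIST1H2BL, HIST1H2BM, HIST1H2BO, HIST1H3H, HIST3H2BB, NPAT and SLBP.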

Additional observations from a re-analysis of the deposited data

Results flagged for a closer look

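The H11 response differed between optimized and wild-type cells in 26 tested members by edgeR's test of the difference, and the IFNL3 response in 20. The calls were 23 upward and 3 downward for H11, against 19.5% and 17.4% of all genes, and 13 and 7 for IFNL3, against 11.1% and 7.31%. With plain totals they were 13 and 11 for H11 and 4 and 15 for IFNL3, where 1140 of 6488 and 727 of 3338 of all called genes went upward. Values are the log2 response in optimized cells minus that in wild-type cells, for the members the naming rule took among the largest. For H11 they were HIST1H3C 4.02, HIST3H2A 2.89, HIST1H4K 2.33, HIST1H4J 2.29 and HIST1H3G 2.17 upward. Downward they were HIST3H3 -2.66, HIST1H4A -1.27 and HIST1H4H -0.71. The HIST3H3 call was lost without the second optimized H11 library (-2.30), and that of HIST1H4H without the first untreated wild-type library (-0.63), the first optimized H11 library (-0.63) or the second wild-type H11 library (-0.58).

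For IFNL3 they were HIST3H2A 1.54, HIST2H3D 1.39, HIST1H3G 1.20, HIST1H4J 1.10 and HIST1H4K 1.06 upward. Downward they were HIST1H2BE -2.47, HIST1H4A -1.77, HIST1H3D -1.36, HIST1H4H -1.05 and HIST1H2BN -0.76. Of these 10 calls, those of HIST1H3G, HIST1H4A, HIST1H3D and HIST1H4H held with each library left out in turn. HIST3H2A lost its call without the first untreated wild-type (1.35), the first optimized IFNL3 (1.37) or the second wild-type IFNL3 library (1.17). HIST2H3D lost it without the first wild-type IFNL3 (1.12), the second untreated wild-type (1.38) or the second optimized IFNL3 library (1.28), and HIST1H2BE without the first untreated optimized (-1.85) or the second optimized IFNL3 library (-2.0). HIST1H2BN lost it without the first wild-type IFNL3 (-0.67), the first optimized IFNL3 (-0.65) or the second untreated wild-type library (-0.70). HIST1H4J lost it without the first untreated wild-type (0.98) or the second wild-type IFNL3 library (0.81). HIST1H4K, which shares its reading frame with HIST1H4J, ranged from 0.78 to 1.11 in the 5 fits that lost its call.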

How the results depend on the processing

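Counts of called members stayed within 1.5 times the main count under DESeq2, its size factors, no filter, the replicate block, the length offset, plain totals and the fit without the wild-type H11 and IFNL3 libraries. The split by direction did not stay with plain totals or, in some comparisons, with the length offset. With the offset, 14 higher and 12 lower for IFNw in wild-type cells became 12 and 13. In optimized cells 13 and 10 for IFNw became 8 and 14, and 11 and 9 for H11 became 9 and 16. The difference of IFNL3 responses became 10 and 11. Plain totals gave 9 and 19, 7 and 17, and 8 and 20 in the first 3 of these. The calls of all genes in these fits are given above. Between receptor types, plain totals turned 26 higher and 4 lower for H11 into 13 and 12, and 17 and 11 for IFNL3 into 9 and 21. In the difference of IFNL3 responses, 13 and 7 became 4 and 15 with plain totals. Of all genes called with plain totals between receptor types and in that difference, 1502 of 8299, 1206 of 5608 and 727 of 3338 were higher, in the same order. Plain totals lost or turned 49 of the 237 calls of named members. In fits of the compared groups alone the counts of called members in optimized cells were 11 for IFNw, 13 for H11 and 10 for IFNL3. The count was 12 for the difference of IFNL3 responses. Those fits called 2052, 2021, 225 and 1538 of all genes, in the same order. For the fits with 1 library left out, which follow, calls over all genes are not given here. A change of the members cannot be told there from a general one.

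With 1 library left out, calls ranged from 17 to 26 for IFNw, 22 to 28 for H11 and 21 to 26 for IFNL3 against untreated wild-type cells. In optimized cells they ranged from 16 to 24, 15 to 25 and 17 to 29. Between receptor types the ranges were 0 to 5 untreated, 28 to 30 with H11 and 18 to 28 with IFNL3. H11 against IFNL3 in optimized cells gave 16 to 24. The response differences gave 0 to 2 for IFNw, 23 to 29 for H11 and 11 to 24 for IFNL3.

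Of 237 called results of named members, 127 kept call and sign under every alternative, 105 lost the call under at least one, and 5 changed sign, all with plain totals. These were, for H11 in optimized against wild-type cells, HIST1H2AM (-0.0627), HIST1H3B (-0.14), HIST1H4D (-0.0732) and HIST2H2BE (-0.0568), and HIST1H3B in the difference of H11 responses (-0.18). The plain scale shifts the median of all genes by -0.68 and -0.67 there.

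Over all tested genes, same-numbered libraries deviated together weakly but always in the same direction (r 0.085 to 0.212 over 28 pairs of groups). The labels do not tie them, so they were not treated as paired in the main fit. The members shared an effect of library number. In every group the second library had the higher plain sum of member reads, the higher H1 share and the lower H2B share. The replicate block gave 28, 30 and 28 calls in wild-type cells and 25, 28 and 31 in optimized cells for IFNw, H11 and IFNL3, and no named call was lost. Of all genes it called 4596, 5658 and 5695 and then 4858, 4761 and 2499, more than the main fit in each comparison. Few reads limit the precision for HIST3H3, HIST1H2BE and untreated HIST1H3C.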
